A study of Rattus norvegicus with 6 samples.

Results

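The left ventricle of rats on a Western diet was compared with that of rats on a Control diet, as 2 Western arrays against 2 Control arrays, 4 of the 6 expression arrays of the series. The comparison took both arrays of each of these diets and every probe set apart from the Affymetrix controls. The animals were male Wistar rats that entered the diets when 6 weeks old and were 18 weeks old at collection, after 12 weeks of feeding and an overnight fast. Each diet held 10 rats, and RNA from 5 rats was pooled for each array, so a value is a pool's and the spread between single rats was not measured. The 2 remaining arrays came from rats on the Western diet with docosahexaenoic acid (Western plus DHA). They entered the estimate of the spread and are given beside some genes. The labels do not state what the Western or the Control diet was made of. Per the design text, the aim was hypertrophy of the left ventricle with as few comorbidities as possible.

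The adult heart draws most of its energy from fatty acids, and the nuclear receptor PPAR alpha, which fatty acids activate, controls many genes of their uptake, handling and oxidation. Sterols act through 2 opposed systems. SREBP-2 switches on cholesterol synthesis and LDL uptake when cellular sterol is low, and the liver X receptors (LXR) switch on cholesterol export when oxysterols are high. A pressure-loaded ventricle typically re-expresses a fetal set of genes, among them the natriuretic peptides.

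The tissue label was checked against cardiomyocyte genes. Of 10 markers 9 had a named probe set, and the myosin heavy chain gene Myh6 read 13.65 and 13.65 in the Western arrays, against 13.52 and 13.65 in the Control arrays. All values are log2 expression values as deposited, and the median over all tested probe sets was 5.34. The 9 markers had a median log2 difference of 0.00. In bulk tissue, fewer cells of a type and less RNA per cell cannot be told apart.

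Arrays of the same diet were not consistently more alike than arrays of different diets. Across probe sets, Western 1 correlated with Control 2 at r = 0.997 and with Western 2 at r = 0.996. Control 1 stood apart, with r = 0.993 to Control 2, 0.993 to Western 1 and 0.994 to Western 2. The median absolute log2 difference was 0.119 between the 2 Western arrays and 0.166 between the 2 Control arrays, and it was 0.111 between Western 1 and Control 2. Probe sets are not independent replicates, so these correlations describe the arrays. The log2 difference between the 3' and 5' probe sets of Gapdh, a measure of RNA integrity, was 0.356 and 0.410 in the Western arrays, against 0.678 and 0.301 in the Control arrays. For beta-actin the difference was 1.48 and 1.54 in the Western arrays, against 1.82 and 1.49 in the Control arrays. For hexokinase it was 2.25 and 2.27 in Western, against 2.28 and 1.89 in Control. The part of RNA integrity in the results was not tested.

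Within the Control diet, 186 probe sets differed by at least 1 on the log2 scale, and 172 of them were higher in Control 1. Within the Western diet 19 did, 12 of them higher in Western 2. The Western gaps were led by genes of atrial muscle. The atrial myosin light chain gene Myl7 read 5.39 in Western 1 and 9.65 in Western 2, against 7.64 and 8.38 in the Control arrays. Myl4, the other atrial light chain gene, read 6.13 and 8.97 in the Western arrays, against 7.01 and 7.61 in the Control arrays. Both Control arrays lay between the 2 Western arrays for each of these genes. The Western plus DHA arrays read 10.09 and 9.53 for Myl7. The 8 atrial markers had mean levels of 6.83 and 8.12 in the Western arrays, against 7.42 and 7.51 in the Control arrays, and 0 of 8 separated the diets. Nppa, the atrial natriuretic peptide gene, read 9.96 and 11.39 in the Western arrays, against 10.43 and 10.26 in the Control arrays. Its log2 difference of 0.33 ± 0.391 (SE, n = 2 pools a diet) was 1.04 without Western 1 and -0.38 without Western 2. Errors given as ± are standard errors from the limma fit, with n = 2 pools a diet throughout.

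**Figure D1:**
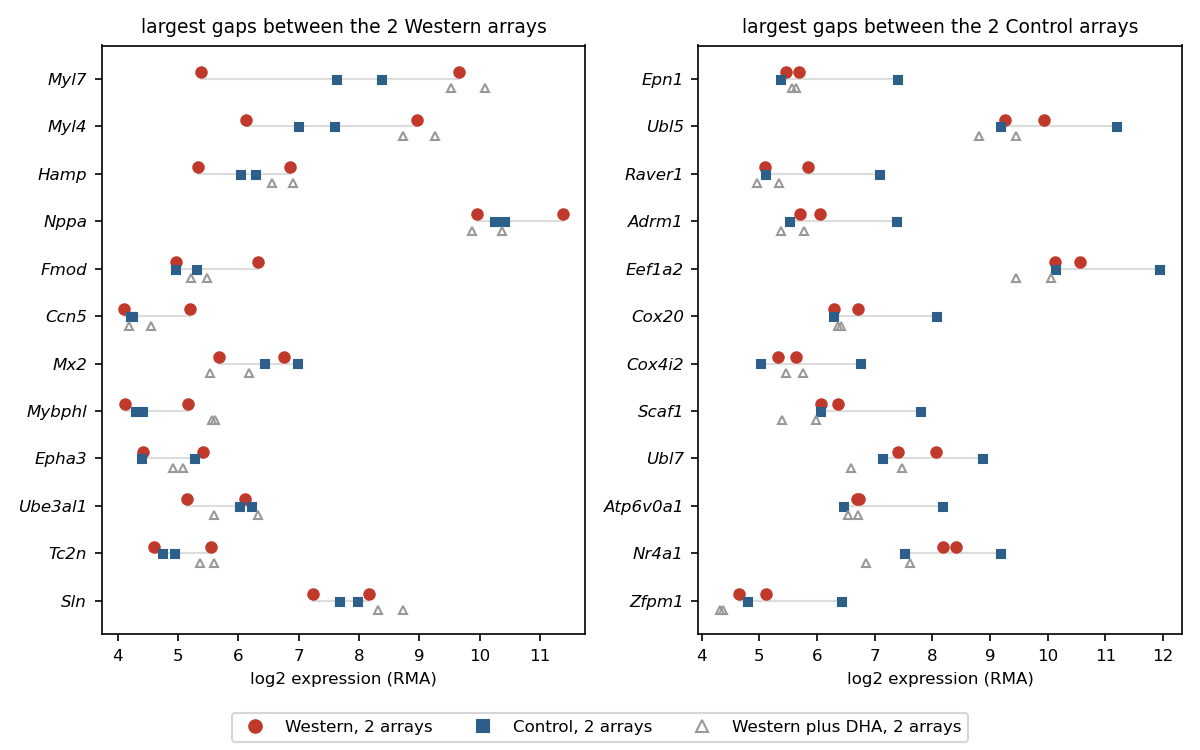
Genes with the widest gap between the 2 arrays of a diet, Western gaps in the left panel and Control gaps in the right one, with log2 expression on the x axis and 1 row a gene. Circles are Western arrays, squares Control arrays and open triangles Western plus DHA arrays. Myl7 spans 5.39 to 9.65 within the Western diet, and Epn1 spans 7.40 to 5.37 within the Control diet.

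Over the whole array, no diet difference passed in limma. At the threshold of 0.05, 0 of 31042 probe sets passed (0%), and the smallest adjusted p was 0.609. The authors' deposited table likewise held 0 adjusted p-values under that threshold for this comparison, with a lowest value of 0.611. At an unadjusted p under 0.05, 501 probe sets were higher in Western (1.61%) and 376 lower (1.21%), together 877, where chance gives 1552.1. The exact permutation test of 2 against 2 arrays cannot go below a two-sided p of 0.333, so single genes were described by array order. The 5th and 95th percentiles of the log2 differences were -0.265 and 0.262, and the median absolute difference was 0.0974. The median within-diet SD was 0.0842 in Western and 0.117 in Control, and the median standard error of a difference was 0.144.

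Both Western arrays lay above both Control arrays for 5417 probe sets (17.5%) and below both for 4190 (13.5%), while the diets overlapped for 21435. With the diets assigned to the 4 arrays at random, each of these 2 separated orders has a probability of 0.167. The counts alone are therefore no sign of a diet difference. The lean depended on the level. In the brighter part, from the median level upward, 1969 probe sets had both Western arrays above and 2489 had both below, whereas below the median level 3448 were above and 1701 below. It also depended on the scaling, since quantile normalization again gave 5092 above and 4369 below, and cyclic loess 4729 above and 4820 below. A separation of at least 0.5 on the log2 scale was seen for 89 probe sets higher in Western (0.287%) and 138 lower (0.445%). Differences of at least 1 numbered 4 higher and 7 lower.

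**Figure D2:**
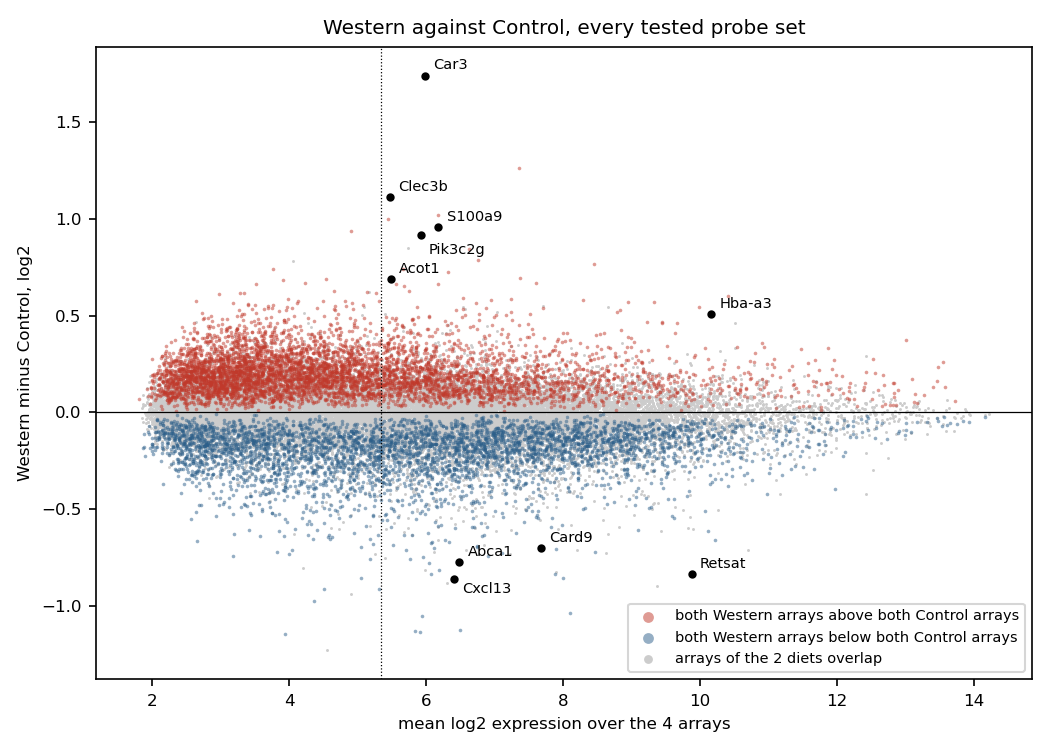
Log2 difference, Western minus Control, on the y axis against the mean log2 expression over the 4 arrays on the x axis, 1 point a probe set, coloured by array order, with the median level of 5.34 dotted. Car3 lies at 1.74 and Retsat at -0.83, while most points lie within -0.265 to 0.262.

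Among genes at or above the median level with separated arrays and a log2 difference of at least 0.5, 20 were higher in Western and 18 lower. The 12 of each direction with the smallest p are described here, and none passed the limma test, with an adjusted p of 0.667 for Car3 and of 1 for the others. Car3, a carbonic anhydrase of adipocytes and slow muscle fibres, read 6.80 and 6.90 in the Western arrays, against 4.98 and 5.24 in the Control arrays. The 1.74 ± 0.223 difference is 3.33-fold on the linear scale and was 1.60 to 1.87 when 1 array was left out. The Western plus DHA arrays read 5.78 and 5.06. The other Car3 probe set, at 4.23 and 4.40 in Western against 4.03 and 4.25 in Control, overlapped between the diets.

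S100a9, a calcium-binding alarmin of neutrophils, read 6.62 and 6.70 in the Western arrays, against 5.51 and 5.89 in the Control arrays. The log2 difference of 0.96 ± 0.151 was 0.77 without Control 1 and 1.15 without Control 2. With Western plus DHA at 6.57 and 6.53, the 4 arrays of both Western diets were above the Control arrays. Acot1 encodes a cytosolic thioesterase that splits acyl-CoA into free fatty acid and coenzyme A, and PPAR alpha activates it. It read 5.83 and 5.82 in the Western arrays, against 5.24 and 5.03 in the Control arrays, a log2 difference of 0.69 ± 0.137 that was 0.59 to 0.79 when 1 array was left out. Both arrays of the supplemented diet, at 6.52 and 6.72, were higher than all 4. Pik3c2g, a class II phosphoinositide kinase, showed the same order, with 6.43 and 6.32 in Western, against 5.33 and 5.60 in Control, and 7.10 and 7.75 in Western plus DHA. Western stood above Control by 0.91 ± 0.210. Hba-a3, an alpha globin gene of red cells, read 10.36 and 10.48 in the Western arrays, against 9.87 and 9.96 in the Control arrays, a difference of 0.51 ± 0.124. The alpha globin genes are near-identical copies, so a probe set may read more than 1 of them.

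Dpep1, a membrane dipeptidase that cleaves leukotriene D4, had 3 probe sets, and Western was above Control in each. The brightest read 6.11 and 5.97 in Western, against 5.28 and 5.31 in Control, and the others differed by 0.48 ± 0.24 and 0.61 ± 0.15. Clec3b, the gene of the plasminogen-binding protein tetranectin, read 5.76 and 6.29 in the Western arrays, against 5.08 and 4.74 in the Control arrays. Its log2 difference of 1.11 ± 0.386 was 0.85 without Western 2, its other probe set differed by 0.31, and the Western plus DHA arrays lay far apart at 5.73 and 4.37. The interferon-induced gene Ifit1 read 6.22 and 6.06 in Western, against 5.40 and 5.79 in Control. Its difference of 0.55 was 0.35 without Control 1, so the separation rested partly on that array. The remaining 4 were the endoribonuclease Endou (0.62 ± 0.169), the ubiquitin ligases Rnf6 (0.73 ± 0.205) and Mul1 (0.52 ± 0.196) and the matrix protein spondin, Spon1 (0.51 ± 0.174). The Rnf6 difference was 0.47 without Control 1.

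**Figure D3:**
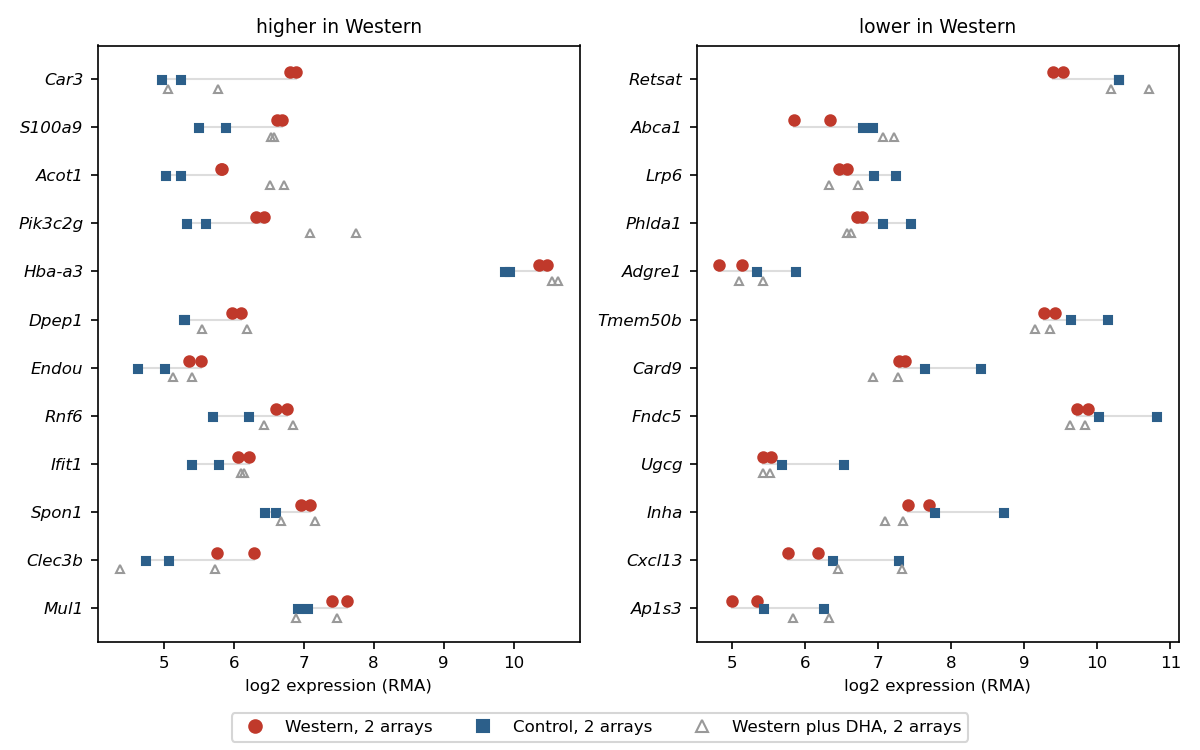
Log2 expression (x axis) of the 24 named genes, 1 row a gene, with the genes higher in Western in the left panel and those lower in the right one. Circles are Western arrays, squares Control arrays and open triangles Western plus DHA arrays. Acot1 has Western at 5.83 and 5.82 between Control and Western plus DHA, and Retsat has Western at 9.54 and 9.39 below both other diets.

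On the lower side the 2 genes with the smallest p act in lipid and retinoid handling. Retsat, retinol saturase, is an oxidoreductase that adds hydrogen to retinol and is a PPAR gamma target in mouse fat. It read 9.54 and 9.39 in the Western arrays, against 10.30 and 10.29 in the Control arrays, a log2 difference of -0.83 ± 0.178. The Control arrays differed from each other by far less than the diets did, and the difference stayed between -0.91 and -0.76 when 1 array was left out. The Western plus DHA arrays, at 10.18 and 10.71, were both above Western. Abca1, the pump that loads cholesterol onto apolipoprotein A-I and a classic LXR target, read 6.35 and 5.85 in the Western arrays, against 6.94 and 6.80 in the Control arrays. Its log2 difference of -0.77 ± 0.177 was -1.02 without Western 1 and -0.52 without Western 2. The supplemented arrays read 7.07 and 7.23, so both Western arrays were below all 4 others. Of the other Abca1 probe sets, the 1 at 5.09 and 4.50 in Western, against 5.72 and 5.39 in Control, showed the same order with -0.76 ± 0.20. A dim set differed by -0.34 ± 0.22 and another by -0.02 ± 0.14.

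The promoters of both genes are shown because each is known as a target of a lipid-sensing receptor. They are the 250 bases before the start in RefSeq on build GRCr8, 5' to 3' on the gene's strand, with a nuclear receptor motif in capitals. The Abca1 stretch is chr5:72596474-72596723 on the minus strand, and the capitals mark 2 receptor binding elements spaced as LXR prefers.
Abca1: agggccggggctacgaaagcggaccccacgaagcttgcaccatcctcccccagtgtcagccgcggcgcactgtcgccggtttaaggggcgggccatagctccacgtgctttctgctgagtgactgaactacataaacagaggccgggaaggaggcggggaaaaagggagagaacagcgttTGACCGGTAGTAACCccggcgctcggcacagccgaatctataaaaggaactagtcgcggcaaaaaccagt
The Retsat stretch is chr4:106211209-106211458 on the plus strand, and the capitals mark a single receptor binding element with its flank.
Retsat: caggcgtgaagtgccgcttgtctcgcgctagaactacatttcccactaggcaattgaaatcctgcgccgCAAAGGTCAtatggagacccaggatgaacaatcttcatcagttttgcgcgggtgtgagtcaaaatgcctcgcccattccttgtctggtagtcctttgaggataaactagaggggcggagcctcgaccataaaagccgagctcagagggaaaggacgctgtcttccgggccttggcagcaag
The first motif searched, on both strands, was GGTTA, then any 5 bases, then GGTCA. It was found 56 bases before the Abca1 start on the opposite strand and in 15 of 33469 promoters of this length (0.0448%). The second, CAAAGGTCA, was found 173 bases before the Retsat start on the gene's strand and in 126 of 33469 promoters (0.376%). Both motifs were chosen after these sequences were seen, each was marked only in the promoter of its own gene, and a match describes the letters only.

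Of the other 10 genes on the lower side, all except Lrp6 moved by more than 1.5 times when a Control array was left out. Cxcl13, the chemokine that attracts B cells, read 5.77 and 6.19 in the Western arrays, against 7.29 and 6.38 in the Control arrays. Its difference of -0.86 ± 0.345 was -0.41 without Control 1 and -1.31 without Control 2. Ugcg, which makes glucosylceramide, differed by -0.63 and by -0.21 without Control 1, and the inhibin gene Inha by -0.70 and by -0.23 without it. For the clathrin adaptor subunit Ap1s3 the array was Control 2, with -0.68 and with -0.27 when it was left out. Lrp6, a co-receptor for Wnt proteins, read 6.58 and 6.47 in Western, against 7.24 and 6.95 in Control, and its difference of -0.57 ± 0.170 was -0.42 to -0.72 when 1 array was left out. Fndc5, whose product is the precursor of irisin, read 9.73 and 9.88 in Western, against 10.81 and 10.02 in Control, and its other probe set differed by -0.44 ± 0.14. The Fndc5 difference of -0.61 was -0.22 without Control 1. Without that array Phlda1 had -0.31 in place of -0.51, Adgre1 -0.37 in place of -0.63 and Tmem50b -0.29 in place of -0.54. Card9 had -0.70, and -0.32 without Control 2. Of the 24 genes, 11 moved by more than 1.5 times in at least 1 of the fits that left out an array. A separated order is part of the rule that chose these genes and is no result. It also fixes the sign of a difference when 1 of the 4 arrays is left out, so no sign could change.

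Genes of fatty acid handling were counted next, over lists chosen with results of these data known. The yardstick is that both Western arrays lay above both Control arrays for 16.6% of all 14217 genes and below both for 11.9%, with a median log2 difference of 0.01. Among 18 measured acyl-CoA thioesterase and PPAR alpha target genes, 8 had both Western arrays above (44.4%) and 1 had both below (5.56%), with a median of 0.13. None passed the test. The count was 9 above after quantile normalization again and 9 after cyclic loess, and the median was 0.08 to 0.14 when 1 array was left out. The hormone gene Fgf21 read 4.81 and 4.71 in the Western arrays, against 4.37 and 4.61 in the Control arrays, at a dim level. Acot2, a mitochondrial thioesterase so close to Acot1 in sequence that probe sets may not tell them apart, read 11.15 and 11.21 in Western, against 10.88 and 10.98 in Control, and its other probe sets disagreed, at -0.35 ± 0.27 and 0.84 ± 0.29.

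The transcription factor gene Creb3l3 read 5.91 and 5.92 in Western, against 5.66 and 5.70 in Control. The mitochondrial carrier gene Ucp3 read 8.66 and 8.87 in Western, against 8.65 and 8.46 in Control, so the nearest arrays of the diets nearly met, and its other probe set overlapped. Angptl4, an inhibitor of lipoprotein lipase, overlapped, with 8.83 and 9.09 in Western, against 8.43 and 8.90 in Control. Pdk4, a kinase that shuts off pyruvate dehydrogenase and a well-known PPAR alpha target, differed by -0.05 ± 0.127. The other Pdk4 probe set lay above without overlap, at 9.68 and 9.61 in Western, against 9.58 and 9.53 in Control (0.09 ± 0.128). The oxidation enzymes themselves showed no lean. Of 20 genes, 4 had both Western arrays above and 3 both below, with a median of 0.01, and they ran from -0.14 for Etfdh to 0.27 for Decr1, a reductase needed to oxidise polyunsaturated fatty acids. Decr1 read 12.20 and 11.99 in Western, against 11.88 and 11.76 in Control. Uptake, storage and lipolysis genes had 3 of 20 above and 2 below, with a median of -0.02. The fatty acid transporter gene Cd36 overlapped, at 12.61 and 12.53 in Western, against 12.00 and 12.55 in Control.

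**Figure D4:**
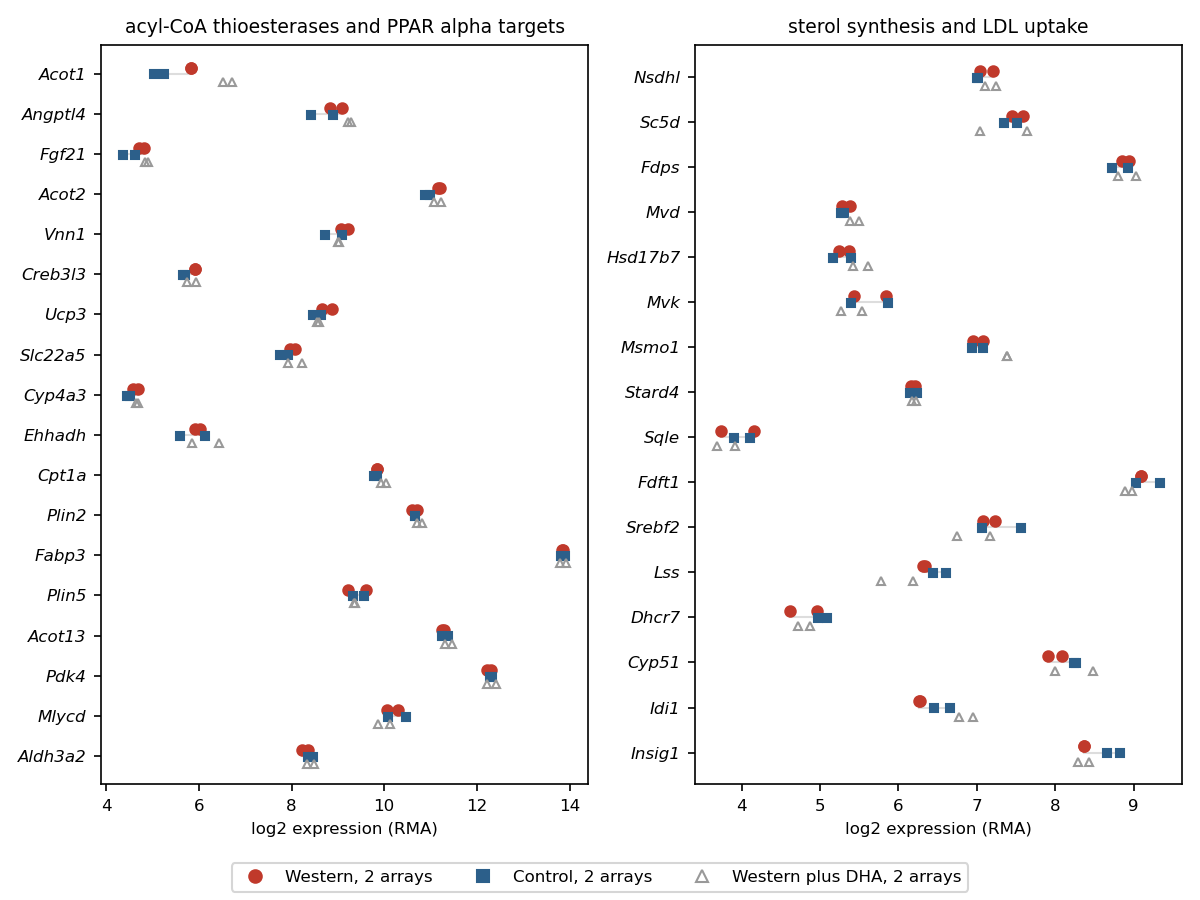
Log2 expression (x axis) of every measured member of 2 lists, PPAR alpha targets on the left and sterol genes on the right, 1 row a gene, ordered by the Western minus Control difference. Circles are Western arrays, squares Control arrays and open triangles Western plus DHA arrays. Insig1 has Western at 8.37 and 8.37 against Control at 8.83 and 8.65, and Acot1 heads the left panel.

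Sterol synthesis and LDL uptake genes leaned the other way in array order. Of 16 measured genes, 5 had both Western arrays below both Control arrays (31.2%) and 1 had both above (6.25%), though the median was only -0.03. Insig1, which holds SREBP in the endoplasmic reticulum and is itself an SREBP target, read 8.37 and 8.37 in the Western arrays, against 8.83 and 8.65 in the Control arrays. Its log2 difference of -0.37 ± 0.130 was -0.29 without Control 1 and -0.46 without Control 2. The isoprenoid enzyme gene Idi1 read 6.27 and 6.26 in Western, against 6.45 and 6.66 in Control, and its other probe set had -0.18 ± 0.15. Cyp51, lanosterol demethylase, read 8.09 and 7.90 in Western, against 8.27 and 8.24 in Control, with -0.39 ± 0.21 in its other set. Dhcr7 and Lss, at the end and the start of the sterol branch, differed by -0.24 ± 0.152 and -0.19 ± 0.160. The 5 genes are enzymes of the pathway and its regulator, and every other member except Nsdhl overlapped between the diets. The count of 5 below was the same after quantile normalization again and after cyclic loess, where 3 and 1 were above.

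The fatty acid synthesis and desaturation list had 5 of 16 above and 3 below, with a median of -0.03, and 8 differences on each side of 0. Scd, the stearoyl-CoA desaturase, read 3.78 and 4.04 in the Western arrays, against 3.40 and 3.44 in the Control arrays, a log2 difference of 0.49 ± 0.134. Fads2, the first desaturase of polyunsaturated fatty acid synthesis, read 4.48 and 4.56 in Western, against 4.17 and 4.26 in Control. Both lay below the median of all probe sets, where 3448 probe sets had both Western arrays above. Of 16 cholesterol export genes 2 were above and 2 below, with Abca1 among those below. Abcg1, the exporter to HDL and another LXR target, overlapped at 6.68 and 6.60 in Western, against 7.11 and 6.68 in Control. A second Abcg1 probe set stood the other way without overlap, at 6.38 and 6.25 in Western, against 5.96 and 5.99 in Control (0.34 ± 0.121), and its dimmest set overlapped. Of 17 retinoid genes, Retsat was the 1 below and 3 were above, among them the retinol carrier gene Rbp4, which read 2.93 and 3.19 in Western, against 2.80 and 2.43 in Control.

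**Figure D5:**
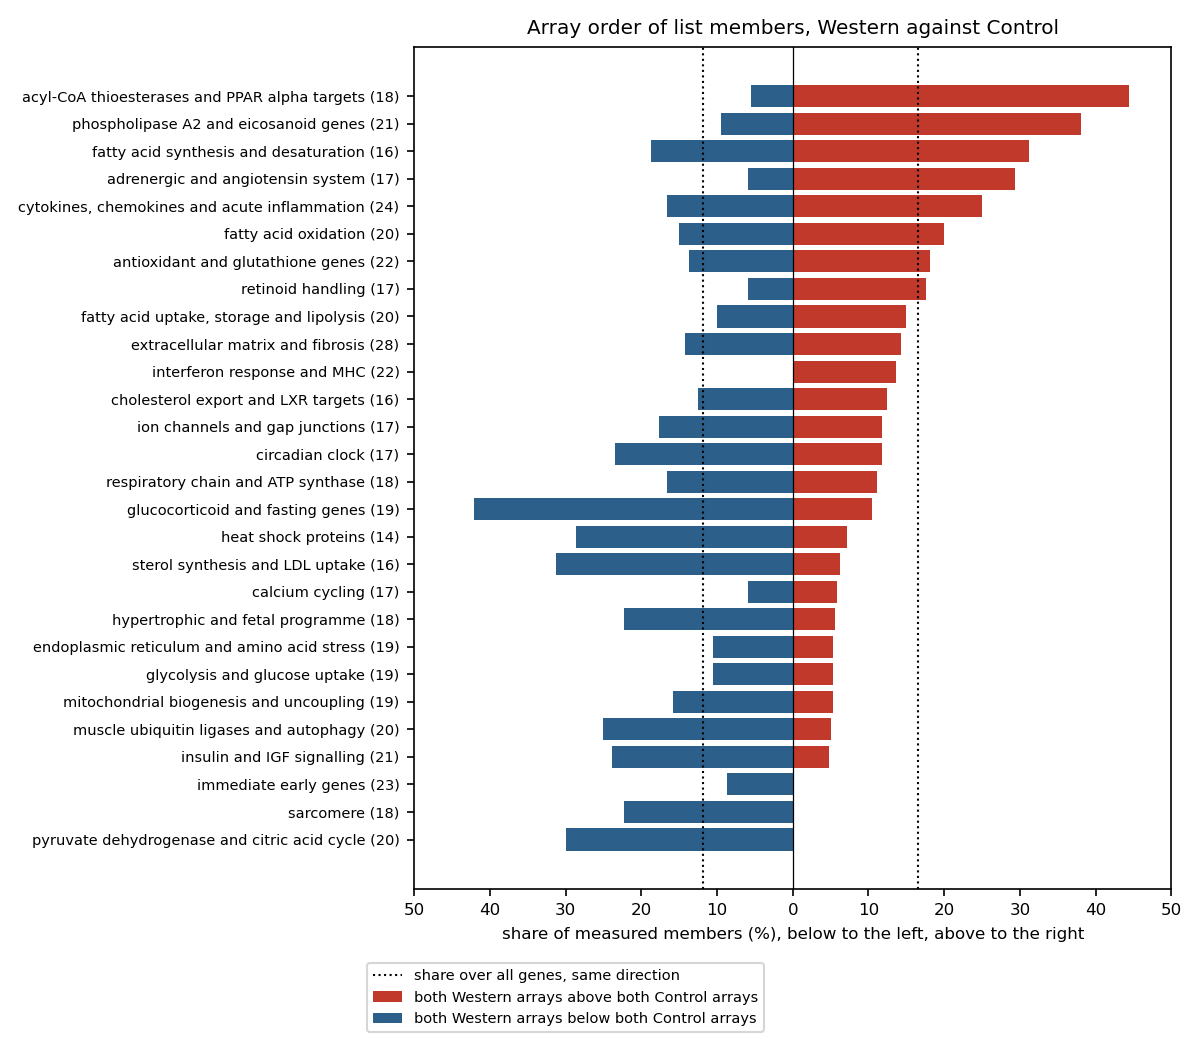
Share of the measured members of each of 28 gene lists (percent, x axis) whose Western arrays both lay above (right) or both below (left) the Control arrays, with the number measured in brackets. Dotted lines mark 16.6% and 11.9% over all genes. PPAR alpha targets reach 44.4% above, and glucocorticoid and fasting genes 42.1% below.

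Genes of glucose use had small differences, mostly below 0. Of 20 genes of pyruvate dehydrogenase and the citric acid cycle, 6 had both Western arrays below (30%) and 0 above, and 19 had a difference below 0, with a median of -0.07. After quantile normalization again 4 were below. The separations were small, as for the isocitrate dehydrogenase subunit Idh3b at 12.33 and 12.31 in Western, against 12.48 and 12.37 in Control. Their mean levels were 11.73 and 11.73 in Western, against 11.86 and 11.77 in Control, and in the brighter part of the array more probe sets lay below than above. The glycolysis list overlapped for 16 of 19 genes, and its median of -0.05 was 0.10 without Control 1 and -0.14 without Control 2. Insulin and IGF signalling genes had 5 of 21 below and 1 above. Irs1, an insulin receptor substrate, read 3.18 and 3.18 in the Western arrays, against 3.52 and 3.53 in the Control arrays, at a dim level. The median of that list, -0.11, was 0.07 without Control 1 and -0.22 without Control 2, so its sign changed with 1 array.

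The hypertrophic and fetal genes gave no uniform picture. Of 18 measured, 1 had both Western arrays above (5.56%), 4 both below (22.2%) and 13 overlapped, with a median of -0.06. The single gene above was Nppb, the B-type natriuretic peptide gene, with 10.94 and 11.27 in the Western arrays, against 10.79 and 10.75 in the Control arrays. Its difference of 0.34 ± 0.188 was 0.51 without Western 1 and 0.17 without Western 2. The atrial gene Myl7 was high in Western 2, at 9.65, and in the Western plus DHA arrays, at 10.09 and 9.53. Nppb read 10.14 and 10.64 in the Western plus DHA arrays. The part of atrial tissue in Nppb was not tested. Rcan1, a feedback regulator that calcineurin signalling induces, read 10.75 and 10.80 in Western, against 11.22 and 11.17 in Control. That gap of -0.42 ± 0.148 was -0.39 to -0.45 when 1 array was left out. Ccn2, a matricellular growth factor gene of fibrosis, read 9.07 and 9.43 in Western, against 9.67 and 9.55 in Control. The brighter probe set of the fetal myosin gene Myh7 overlapped, at 12.55 and 12.47 in Western, against 12.67 and 12.52 in Control. Its dimmer probe set did not, at 9.67 and 9.60 in Western, against 10.10 and 9.97 in Control, a difference of -0.40 ± 0.137 that did not pass the test. A dimmer probe set of Myh6 also lay lower, at 11.77 and 11.80 in Western, against 12.45 and 11.90 in Control. That difference was -0.39 ± 0.183, and the brighter Myh6 set overlapped.

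Sarcomere genes separated below for 4 of 18 and above for 0 (3 and 2 after quantile normalization again), by amounts as small as -0.06 for the troponin gene Tnnt2. Matrix genes had 4 of 28 above and 4 below. Lox, which cross-links collagen, read 7.09 and 7.15 in Western, against 6.77 and 6.85 in Control, and its other probe set overlapped. P4ha1, which hydroxylates it, read 8.51 and 8.52 in Western, against 8.84 and 8.86 in Control. Col1a1, the main fibrillar collagen gene, overlapped at 8.18 and 8.42 in Western, against 9.53 and 8.19 in Control, with Control 1 high. Its other probe set stood the other way, at 7.07 and 7.23 in Western, against 7.04 and 6.94 in Control (0.16 ± 0.19). The median of the matrix list, -0.05, was 0.10 without Control 1 and -0.10 without Control 2. The 2 subunits of the slow delayed rectifier potassium channel stood apart in opposite directions. The pore gene Kcnq1 read 8.24 and 8.33 in Western, against 7.78 and 8.05 in Control, and the dim accessory gene Kcne1 read 3.35 and 3.60 in Western, against 4.09 and 3.79 in Control.

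Genes that glucocorticoids and fasting induce had the largest share below among the 28 lists, 8 of 19 (42.1%), with 2 above and a median of -0.13. The median was -0.03 without Control 1 and -0.16 without Control 2. Ddit4, an inhibitor of mTOR signalling, read 7.41 and 7.50 in the Western arrays, against 7.96 and 7.82 in the Control arrays. Its log2 difference of -0.43 ± 0.123 was -0.36 to -0.50 when 1 array was left out. Klf15, a fasting-induced transcription factor gene, read 8.51 and 8.50 in Western, against 8.95 and 8.53 in Control, and its other probe sets had -0.57 ± 0.33 and -0.04 ± 0.14. The list kept 7 below after quantile normalization again and 7 after cyclic loess. Heat shock genes had 4 of 14 below and 1 above. Among those below was the chaperone gene Hspb8 at 10.78 and 10.82 in Western, against 11.15 and 10.92 in Control. The other Hspb8 probe set overlapped, with a difference of -0.01 ± 0.142. After quantile normalization again 2 of the 14 were below and 0 above. Immediate early genes overlapped for 21 of 23. Their median of -0.16 was 0.05 without Control 1 and -0.36 without Control 2, and Egr1, high in Control 1, read 7.61 and 8.04 in Western, against 8.82 and 7.99 in Control. Of 17 clock genes 2 were above and 4 below, and Bhlhe40, a repressor of the clock, read 6.31 and 6.70 in Western, against 5.42 and 6.26 in Control.

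Phospholipase and eicosanoid genes had 8 of 21 above (38.1%) and 2 below, with a median of 0.07. Ptgds, prostaglandin D synthase, read 5.91 and 6.02 in the Western arrays, against 5.74 and 5.37 in the Control arrays, and its difference of 0.41 ± 0.155 was 0.23 without Control 2. Ephx1, an epoxide hydrolase, read 7.79 and 7.61 in Western, against 7.22 and 7.40 in Control. The secreted phospholipase gene Pla2g2a read 10.30 and 10.20 in Western, against 10.14 and 9.81 in Control. The count above was 9 after quantile normalization again and 8 after cyclic loess, where 3 and 4 were below. Alox12, the platelet-type lipoxygenase gene, lay on the lower side at a dim level, with 3.06 and 2.86 in Western, against 3.65 and 3.13 in Control.

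Markers of other cells were set beside these lists. Over all genes 16.6% were above and 11.9% below. Below the median level of 5.34, both Western arrays were above for 3448 of 15219 probe sets and below for 1701. The mean levels of the neutrophil and of the T and NK cell list lay in that dim part in all 4 arrays. Of 10 measured neutrophil genes 5 were above (50%) and 1 below (10%). S100a8, the partner of S100a9, read 4.62 and 4.95 in Western, against 4.06 and 4.35 in Control, and the dim collagenase gene Mmp8 read 3.14 and 2.93 in Western, against 2.64 and 2.68 in Control. The neutrophil genes Lcn2 and Mmp9 overlapped, and mean levels of the list were 4.04 and 4.16 in Western, against 3.84 and 3.98 in Control. Of 13 adipocyte genes 6 were above (46.2%) and 1 below (7.69%), with mean levels of 6.38 and 6.39 in Western, against 6.18 and 6.11 in Control. Adipoq, the adiponectin gene, read 3.91 and 4.36 in Western, against 3.50 and 3.29 in Control, also in the dim part. The dim lipid droplet gene Cidec read 3.38 and 3.24 in Western, against 2.94 and 2.82 in Control. Plin1 and Lep, also defining fat genes, differed by 0.00 ± 0.23 and 0.02 ± 0.13. Erythroid genes had 3 of 7 above (42.9%) and 0 below, with beta globin Hbb at 12.69 and 12.65 in Western, against 12.30 and 12.49 in Control. Of 9 T and NK cell genes 5 were above (55.6%) and 1 below (11.1%). Cd4, also a macrophage gene in rats, was lower, at 4.35 and 4.10 in Western, against 4.93 and 4.67 in Control. Macrophage genes were even, with 2 of 12 above and 2 below. The part of these cells in Car3, S100a9 and Hba-a3 was not tested.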

How the data were processed

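Biotin-labelled material made from left ventricular RNA was hybridised to Affymetrix arrays, 2 a diet, each with RNA from 5 rats. The deposited values are log2 expression values for which the submitters' processing notes name RMA and R 2.11.0, computed by the authors. RMA sets all arrays to a common distribution, so overall RNA levels were not measured. Earlier steps, an aligner and a build were not given in the sources used here. The deposited p-values and log2 differences per comparison come from a test the sources used here do not name. They served only as a check, and the authors' p-values differed from a limma fit with control probe sets kept by at most 5.39e-08. A deposited list of probe sets was not used.

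Of 31099 probe sets, 57 controls were left out. Symbols came from the platform annotation, looked up in the RefSeq genes of GRCr8 with 0 symbols changed, and 20826 probe sets had 1 symbol, 436 several and 9780 none. The probe set with the highest mean over the 6 arrays stood for each of 14217 genes. Differences of array means were put to limma 3.58.1 (R 4.3.3) over all 6 arrays, 1 mean a diet, with 3 residual and 5.28 prior degrees of freedom and Benjamini-Hochberg adjustment over 31042 probe sets. The fit was tested on simulated data. Precision is limited by the number of arrays, and p-values measure the spread between pools.

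Genes were named by rule. The rule took the 12 per direction with the smallest p. These came from genes at or above the median level in the higher diet, with separated arrays and a difference of at least 0.5. It also took a fixed panel of heart, lipid, fat, immune, clock and red cell genes, with Car3, S100a9, Retsat and Abca1 among them. Up to 4 members of each list were added by p. Idh3b and Lss, and list members named as counterexamples, were named after their values were seen. Members, rules, 28 programme lists and 15 marker lists were chosen with earlier results of these data known. The alternatives tried were removal of dim probe sets, a replicate block, other normalizations, priors and weights, and leaving out each array.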

Additional observations from a re-analysis of the deposited data

How the results depend on the processing

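The count of called probe sets was 0 in limma under each alternative tried, with 282 to 2809 at an unadjusted p under 0.05. At that unadjusted threshold 877 probe sets became 282 with dim probe sets removed, 288 with representative probe sets alone and 310 with probe sets averaged per gene, where fewer were tested. Of them, the share higher in Western was 57.1%, against 47.1% after quantile normalization again, 41.8% after cyclic loess, 41.1% without dim probe sets, 70.5% with representatives, 69.7% with means and 42.2% without Control 2. Leaving out 1 array gave 523 to 2809, the highest without Control 2. Separated probe sets with a difference of at least 0.5 numbered 227, against 135 with dim sets removed, 61 with representatives, 54 with means, 1611 at a minimum of 0.3 and 10 at a minimum of 1. Leaving out 1 array gave 293 to 1648, where a single remaining array separates more easily.

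With the replicate number as a block, 759 probe sets lay under the unadjusted threshold. Same-numbered Western and Control arrays deviated with r = -0.206. The value was 0.202 for Western plus DHA with Control and -0.228 for Western plus DHA with Western. Such correlations cannot tell whether equal numbers share a batch, and the labels do not say. The crossed pairing, chosen after seeing the data, gave 1395. No difference among the 24 named genes reversed under the other settings. Leaving out an array could not reverse any of them, since the rule took separated arrays. Of 3736 values of single genes and list medians under other settings, 71 moved by more than the replicate SD, and the cause was not tested.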

Other observations

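Of the lists not described above, the calcium cycling and respiratory chain lists showed little order between the diets. Calcium cycling genes overlapped for 15 of 17, and respiratory chain and ATP synthase genes had 2 of 18 above and 3 below, with list medians of 0.01 and -0.02. Adrenergic and angiotensin genes had 5 of 17 with both Western arrays above both Control arrays (29.4%), against 16.6% of all genes, and 3 of 17 after quantile normalization again and after cyclic loess. Among them the alpha-adrenergic receptor gene Adra1d read 5.89 and 6.05 in Western, against 5.67 and 5.59 in Control, and its Western plus DHA arrays, at 5.56 and 5.25, were below both diets. Inflammatory genes had 6 of 24 above and 4 below, and 4 above and 6 below after cyclic loess. The decoy receptor gene Il1r2 read 3.07 and 3.37 in Western, against 2.78 and 2.80 in Control, at a dim level. Interferon and MHC genes had 3 of 22 above, although Ifit1, which is interferon-induced, was among the genes with the smallest p. Glutathione reductase, Gsr, read 4.68 and 4.78 in Western, against 4.41 and 4.38 in Control.

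The remaining probe sets with a log2 difference of at least 1 were singled out after their values were seen. Plppr4 read 6.44 and 6.91 in Western, against 6.17 and 5.14 in Control. A second probe set of the gap junction gene Gja1 read 7.77 and 8.21 in Western, against 6.29 and 7.17 in Control, while the brighter set of Gja1 differed by -0.08. The smallest p of the comparison belonged to a probe set with no gene name here, which read 3.45 and 3.30 in Western, against 4.56 and 4.46 in Control. All 7 probe sets lower by at least 1 had no single gene name here.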
